A study of Mus musculus with 27 samples.

Results

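The 10 genes described here encode the enzymes and chaperones that hydroxylate, fold and crosslink collagen: the lysyl hydroxylases Plod1, Plod2 and Plod3, the prolyl 4-hydroxylase alpha subunits P4ha1 and P4ha2, the chaperones Serpinh1 and Fkbp10, and the lysyl oxidases Lox, Loxl1 and Loxl2. They were chosen by name, as the entries of the count table whose Ensembl ID carries those symbols, and make up 10 of its 55414 entries. All 10 were among the 14114 genes that averaged 10 or more counts over the libraries and were tested. Poly(A) RNA was sequenced from whole livers of 27 female Balb/c mice, 8 weeks old, in a 2-week experiment with 8 groups. Mice without injury received olive oil by intraperitoneal injection, with PBS in the tail vein (control, n = 4), with daily 4MU by gavage (4MU, n = 3), or with a lipid nanoparticle in the tail vein that carried an siRNA against luciferase (siLuc-LNP, n = 3) or against Has2 (siHAS2-LNP, n = 3). Injured mice received the hepatotoxin carbon tetrachloride in place of the oil, alone (CCl4, n = 2) or with the same treatments (CCl4 + siHAS2-LNP, CCl4 + siLuc-LNP and CCl4 + 4MU, n = 4 each). 4MU, 4-methylumbelliferone, inhibits hyaluronan synthesis, Has2 encodes a hyaluronan synthase, and luciferase is a gene that mice lack. The labels of the CCl4 group name the CCl4 injection only, with no tail vein vehicle, and the methods state a carboxymethyl cellulose gavage for controls of 4MU. Libraries held between 7044386 and 29425937 counts, and levels are given as CPM, counts per 1000000 counts of the TMM-scaled library.

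Collagen chains are modified inside the endoplasmic reticulum before they leave the cell. Prolyl 4-hydroxylases add the hydroxyl groups that keep the triple helix stable at body temperature, lysyl hydroxylases prepare lysines for sugars and crosslinks, and Serpinh1, also known as HSP47, binds the folded helix and travels with it towards the Golgi. Outside the cell, lysyl oxidases convert lysines and hydroxylysines to aldehydes that join neighbouring molecules, which stiffens the matrix and makes it harder to degrade. In the injured liver, activated stellate cells and portal fibroblasts are the main producers of fibrillar collagen. In whole liver RNA, a change in the number of such cells and a change in RNA per cell cannot be told apart.

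RefSeq promoter windows, 250 bases before to 50 bases after the start site in GRCm38.p6, were matched by symbol for 5 of the 10 genes, Plod1, Plod3, P4ha1, P4ha2 and Serpinh1. The windows of Serpinh1, which rose with CCl4, and of P4ha1 and P4ha2, the subunits of prolyl 4-hydroxylase, are printed 5′ to 3′ with the letters ACGTG (the core of a hypoxia response element, either strand) and GAANNTTC or TTCNNGAA (a pair of heat shock repeats) in capitals.
Serpinh1 promoter, chr7:99353190-99353489, minus strand: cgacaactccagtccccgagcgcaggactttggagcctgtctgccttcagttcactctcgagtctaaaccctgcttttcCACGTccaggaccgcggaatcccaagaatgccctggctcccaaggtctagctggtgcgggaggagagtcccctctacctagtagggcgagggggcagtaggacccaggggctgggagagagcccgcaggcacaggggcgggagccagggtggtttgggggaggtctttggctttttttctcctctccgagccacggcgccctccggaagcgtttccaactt
P4ha1 promoter, chr10:59323046-59323345, plus strand: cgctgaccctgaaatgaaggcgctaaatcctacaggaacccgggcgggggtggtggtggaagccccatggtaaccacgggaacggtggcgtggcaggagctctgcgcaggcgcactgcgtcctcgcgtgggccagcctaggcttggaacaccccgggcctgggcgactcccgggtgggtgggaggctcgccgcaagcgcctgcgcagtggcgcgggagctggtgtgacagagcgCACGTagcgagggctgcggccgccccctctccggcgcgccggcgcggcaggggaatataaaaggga
P4ha2 promoter, chr11:54100674-54100973, plus strand: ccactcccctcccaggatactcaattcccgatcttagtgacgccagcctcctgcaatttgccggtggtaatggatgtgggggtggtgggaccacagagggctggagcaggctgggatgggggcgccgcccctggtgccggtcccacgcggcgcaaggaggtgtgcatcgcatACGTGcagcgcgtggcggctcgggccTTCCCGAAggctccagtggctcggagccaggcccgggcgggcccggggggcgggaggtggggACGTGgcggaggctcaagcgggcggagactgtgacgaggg
ACGTG was found in 4 of the 5 windows, Plod3, Serpinh1, P4ha1 and P4ha2, and in 19.6% of all 32851 windows of the same length. The windows of the 5 genes held 53.3% to 70.3% G and C, against a median of 52.67% over all windows, and the shares were not matched on this. It stood 171 bases before the start site in Serpinh1, 16 bases before it in P4ha1, and 78 bases before it and again after it in P4ha2. TTCNNGAA was found in P4ha2 and GAANNTTC in Plod1, against 8.52% and 7.86% of all windows. These are matches of letters, which were not tested for binding. Of 12 hypoxia-inducible factor targets, 5 were higher and 3 lower in all CCl4 livers than in all others, against 24.4% and 22.1% of all genes. Among the 3 was Vegfa, a blood vessel growth factor (log2 fold change -0.54 ± 0.13 SE, adjusted p = 0.00107). In CCl4 against control, 3 of the 12 were higher and 3 lower, against 2537 and 2268 of 14114 genes. The 12 summed to 2295 to 2391 CPM in CCl4 and 1232 to 1470 CPM in control. Car9, another of the 12, had 34.8 CPM in CCl4 + 4MU replicate 4 and at most 0.827 CPM in the other CCl4 livers. Of 6 tested heat shock factor targets 0 were higher and 2 lower in all CCl4 livers than in all others. Slc2a1, a glucose transporter, and Hspa1b, a heat shock protein, had log2 fold changes of 0.21 and 0.26 (adjusted p = 0.0722 and 0.41).

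Has2 itself was near the limit of detection: all 13 livers without CCl4 and all livers given 4MU or siHAS2-LNP had 0 counts, and the CCl4 and CCl4 + siLuc-LNP groups held 0 to 2 counts per library, so the knockdown could not be checked at this depth. The hepatocyte markers Alb (albumin) and Ttr (transthyretin) were high in every group, with mean Alb at 109400 CPM in all CCl4 livers and 130600 CPM in all others. Of 6 such markers 0 were called between these sets (0 also at an unadjusted p under 0.05, edgeR only), while Alb and Ttr were lower in CCl4 than in control (log2 fold changes -0.90 and -1.16). Pancreatic Cpa1 was at most 0.0401 CPM and Krt5 of stratified epithelium at most 0.314 CPM; of these 2 lists only Cela1 could be tested (-0.53, adjusted p = 0.00732). CCl4 + 4MU replicate 4 stood apart in Krt19 and Epcam, of bile duct epithelium, with 92.6 and 19.6 CPM against at most 2.51 and 1.63 CPM in the other 3 livers of its group, and in Myh11 of smooth muscle with 21.8 against at most 1.68 CPM. CCl4 replicate 2 had the highest summed mesothelial markers (35.8 CPM, against 15.2 CPM in CCl4 replicate 1) and the lowest Alb of the CCl4 livers, 58080 CPM. Their part in the results was not tested. Calls of the members that rest on these livers are also given without them, while marker and collagen results are not.

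Per kilobase of exon, the order of the 10 genes changed with CCl4. In control livers Plod1 (5.02 CPM per kilobase) and Plod3 (4.21) were the most abundant, Serpinh1 (1.37) and P4ha1 (1.08) followed, and Lox (0.0249) was the lowest. In CCl4 livers Serpinh1 was the most abundant at 7.39 CPM per kilobase, ahead of Plod3 (5.90) and Plod1 (5.13). Loxl2 stood at 3.64 CPM per kilobase in CCl4 livers, above P4ha1 at 2.05, and Lox at 1.44 was close to Loxl1 at 1.46 and Fkbp10 at 1.41. Plod2 (0.452) and P4ha2 (0.569) were the lowest of the 10 there.

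**Figure D1:**
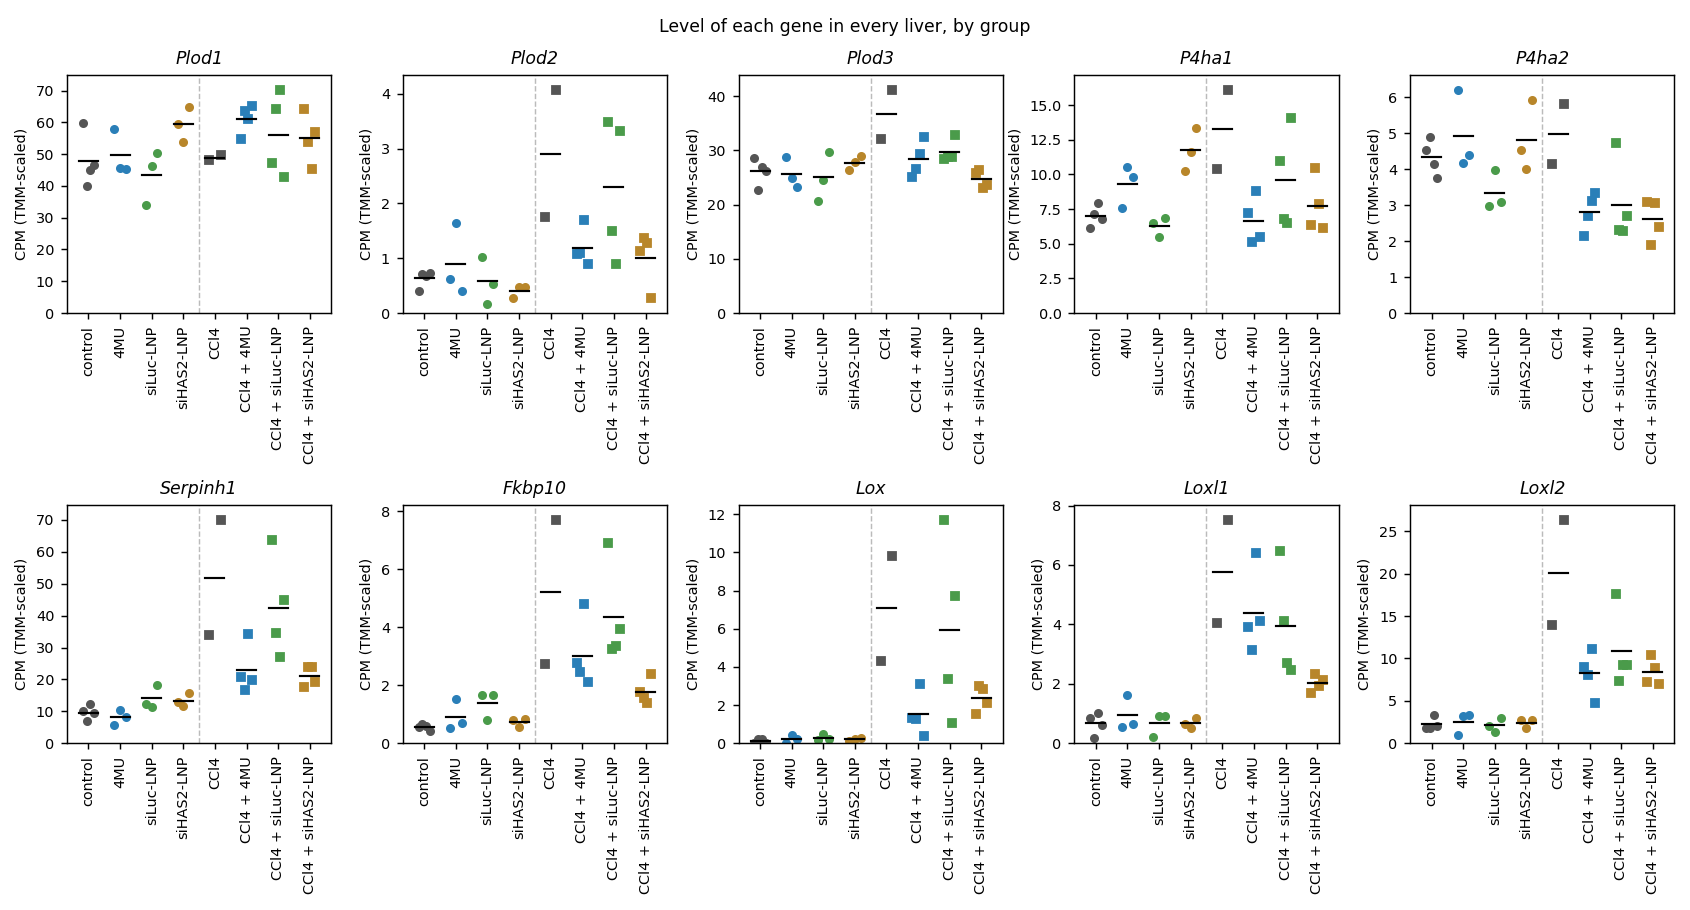
Level of each gene in CPM in every liver, with groups on the horizontal axis, livers without CCl4 as circles left of the dashed line and CCl4 livers as squares to its right, and the group mean as a black bar. Serpinh1 lies at 5.58 to 18.4 CPM without CCl4 and at 16.8 to 69.8 CPM with it, while Plod1 spans 33.9 to 64.8 and 42.9 to 70.2 CPM.

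The first comparison asked what 2 weeks of CCl4 did to these genes with no other treatment. In CCl4 livers 8 of the 10 genes were higher than in control, against 18% of all tested genes that were called higher, and 0 were lower. The 3 lysyl oxidases and both chaperones rose most, between 5.37-fold and 57.0-fold, Plod2 rose 4.57-fold, and P4ha1 and Plod3 rose less than 2-fold. Plod1 and P4ha2 did not pass the test. The median log2 fold change of the 10 genes was 2.31, beside -0.02 over all tested genes.

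Plod2, the lysyl hydroxylase that acts on the telopeptides where crosslinks form (ENSMUSG00000032374, GRCm39 chr9:92424119-92490494), had 0.407, 0.708, 0.683 and 0.736 CPM in control and 1.75 and 4.07 CPM in CCl4 livers. The groups did not overlap, and the log2 fold change was 2.19 ± 0.56 (SE, edgeR quasi-likelihood test, adjusted p = 0.00384). Plod1 (ENSMUSG00000019055, chr4:147991574-148021356), which hydroxylates lysines of the helix, had 59.7, 40.1, 45.1 and 46.5 CPM in control and 48.1 and 49.7 CPM with CCl4. Its values overlapped, with a log2 fold change of 0.03 and a 95% interval of -0.37 to 0.43. Plod3 (ENSMUSG00000004846, chr5:137015827-137025502), which also adds the sugars to hydroxylysine, went from 28.6, 22.7, 26.99 and 26.2 CPM to 32.2 and 41.1 CPM, without overlap (log2 fold change 0.49 ± 0.14, adjusted p = 0.0116). Plod3 shares its locus with Znhit1 on the other strand, and the strand setting of the counting is not given in the sources used here.

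P4ha1 and P4ha2 are alternative catalytic subunits of the prolyl 4-hydroxylase that makes 4-hydroxyproline. P4ha1 (ENSMUSG00000019916, chr10:59159092-59209126), whose promoter is printed above, had 6.11, 7.14, 7.94 and 6.79 CPM in control and 10.4 and 16.1 CPM in CCl4 livers. Both CCl4 livers lay above all 4 controls (log2 fold change 0.92 ± 0.27, adjusted p = 0.0107). P4ha2 (ENSMUSG00000018906, chr11:53981553-54022494) had 4.53, 4.90, 4.14 and 3.76 CPM in control and 4.14 and 5.80 CPM with CCl4. These ranges overlapped, and the interval of the log2 fold change ran from -0.37 to 0.78 (estimate 0.20, adjusted p = 0.60).

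Serpinh1 (ENSMUSG00000070436, chr7:98994220-99005076), the collagen-specific chaperone, had 9.97, 6.97, 12.2 and 9.40 CPM in control and 33.9 and 69.8 CPM in CCl4 livers. It was the most abundant of the genes that rose, and the log2 fold change was 2.43 ± 0.31 (adjusted p = 2.34e-06). Fkbp10 (ENSMUSG00000001555, chr11:100305808-100315669), a peptidyl-prolyl isomerase that supports the hydroxylation of telopeptide lysines, had 0.560, 0.649, 0.598 and 0.409 CPM in control and 2.73 and 7.69 CPM with CCl4. The CCl4 livers lay above all controls but differed between themselves by more than the whole range of the controls (log2 fold change 3.24 ± 0.44, adjusted p = 4.30e-06). Fkbp10 overlaps P3h4 and Nt5c3b on the other strand.

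Lox (ENSMUSG00000024529, chr18:52649136-52663110) is the classical lysyl oxidase. In control livers it was listed with 0, 4, 5 and 1 counts, or 0, 0.236, 0.213 and 0.0409 CPM, and in CCl4 livers with 89 and 261 counts, or 4.33 and 9.83 CPM. The log2 fold change of 5.83 ± 0.85 (adjusted p = 1.25e-05) rests on these low control counts, and its 95% interval ran from 4.07 to 7.59. Loxl1 (ENSMUSG00000032334, chr9:58195014-58220495), which also crosslinks elastin, went from 0.865, 0.177, 1.02 and 0.613 CPM to 4.04 and 7.498 CPM, an 8.40-fold rise (adjusted p = 2.59e-05). Loxl2 (ENSMUSG00000034205, chr14:69846209-69933283), which acts on basement membrane as well as fibrillar collagen, went from 1.83, 1.83, 3.33 and 2.04 CPM to 13.9 and 26.3 CPM, an 8.83-fold rise (adjusted p = 1.60e-06). In all 3 lysyl oxidases every CCl4 liver exceeded every control, as in the 5 other genes that were called and in 25.7% of all tested genes. Loxl2 overlaps R3hcc1 on the other strand.

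CCl4 replicate 2 was the higher of the 2 CCl4 livers for all 10 genes. Without it, 5 of the 10 genes were called, Serpinh1, Fkbp10, Lox, Loxl1 and Loxl2, with log2 fold changes of 1.83, 2.32, 5.14, 2.58 and 2.63. Plod2, Plod3 and P4ha1 then kept their direction, with values of 1.48, 0.32 and 0.60 and adjusted p of 0.17, 0.24 and 0.26. Over all alternatives, the adjusted p of these 3 genes ranged from 6.27e-05 to 0.17, from 0.00463 to 0.24 and from 0.00245 to 0.26.

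The mRNA of the collagens, whose proteins these enzymes act on, rose in the same livers. Col1a1, Col1a2 and Col3a1 were 44.9-fold, 18.2-fold and 10.2-fold higher in CCl4 than in control, and all 10 collagen chains tested were called higher. Of 24 other collagen enzymes and helpers, 19 were tested, 9 were higher and 0 lower.

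The same question was asked under each treatment, with the matching uninjured livers as controls. Under 4MU, 5 genes were higher and 1 lower with CCl4, against 13.2% and 10.5% of all genes. Under siLuc-LNP, 6 were higher, against 13%, and 0 lower. Under siHAS2-LNP, 3 were higher and 1 lower, against 7.74% and 5.09%. Lox, Loxl1 and Loxl2 were called higher in all 4 settings, and Plod1 in none of them.

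**Figure D2:**
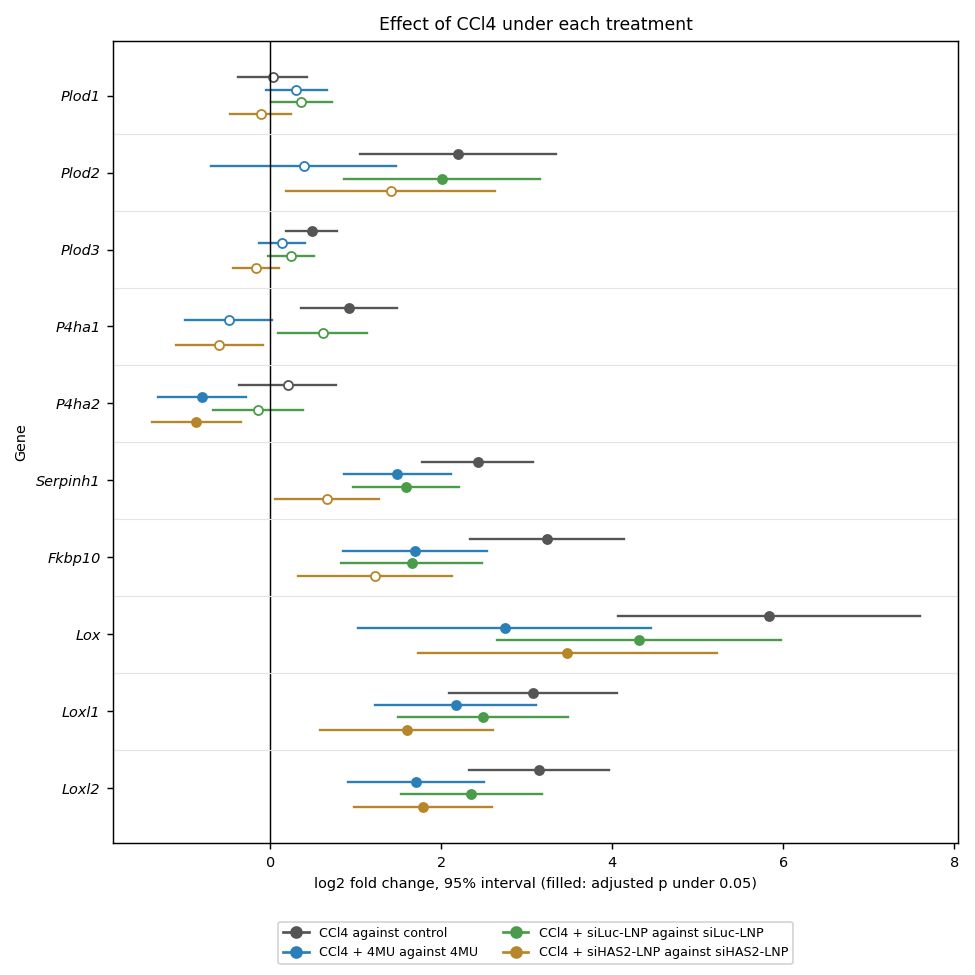
Log2 fold change of each gene with CCl4 in the 4 treatment settings, as points with 95% intervals, filled where the adjusted p was under 0.05. All filled points lie right of 0 except P4ha2 under 4MU (-0.80) and under siHAS2-LNP (-0.86).

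In lysyl oxidases the rise held under every treatment. Lox had 0, 0.430 and 0.203 CPM in 4MU livers and 1.33, 1.297, 3.10 and 0.392 CPM in CCl4 + 4MU livers, where replicate 4, the liver with high Krt19, overlapped the uninjured range (log2 fold change 2.74 ± 0.83, adjusted p = 0.0183). Without that liver the call remained, and it was lost without 4MU replicate 1, 4MU replicate 3 or CCl4 + 4MU replicate 3, with log2 fold changes of 2.22, 2.68 and 2.11. With siLuc-LNP, Lox went from 0.172, 0.513 and 0.220 CPM to 11.7, 3.36, 1.08 and 7.73 CPM (log2 fold change 4.31 ± 0.81, adjusted p = 0.000356). With siHAS2-LNP it went from 0.121, 0.236 and 0.299 CPM to 1.53, 3.03, 2.85 and 2.14 CPM (log2 fold change 3.47 ± 0.85, adjusted p = 0.00784), and the call was lost without siHAS2-LNP replicate 1 (3.16, adjusted p = 0.052). The adjusted p of these values over all alternatives ran from 7.27e-06 to 0.0792 under 4MU, from 1.32e-13 to 0.00856 under siLuc-LNP and from 4.13e-08 to 0.052 under siHAS2-LNP.

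Loxl1 was 4.50-fold higher with CCl4 under 4MU, 5.63-fold under siLuc-LNP and 3.02-fold under siHAS2-LNP (adjusted p = 0.00124, 0.000489 and 0.0315), and its groups did not overlap in any of the 3 settings. The call under siHAS2-LNP was lost without any 1 of the 3 siHAS2-LNP livers or without CCl4 + siHAS2-LNP replicate 2 or 3, at log2 fold changes of 1.43 to 1.76. Loxl2 was 3.26-fold, 5.10-fold and 3.45-fold higher (adjusted p = 0.0023, 0.000129 and 0.00319), again without overlap. In the same 3 settings 18.3%, 13.7% and 15.2% of all tested genes lay higher with CCl4 without overlap. The uninjured levels of Loxl2 were 0.922, 3.24 and 3.34 CPM with 4MU, 2.00, 1.31 and 2.99 CPM with siLuc-LNP and 2.79, 1.84 and 2.69 CPM with siHAS2-LNP.

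The chaperones rose under 4MU and siLuc-LNP. Serpinh1 went from 5.58, 10.6 and 8.20 CPM to 20.8, 16.8, 34.1 and 19.7 CPM under 4MU (2.80-fold, adjusted p = 0.000981). Under siLuc-LNP it went from 12.4, 11.4 and 18.4 CPM to 63.7, 34.7, 26.9 and 44.7 CPM (3.02-fold, adjusted p = 0.000399). Under siHAS2-LNP the values were 12.8, 11.6 and 15.8 CPM without CCl4 and 17.5, 23.8, 23.9 and 19.2 CPM with it. These did not overlap, nor did 15.2% of all tested genes that lay higher with CCl4. The log2 fold change of 0.66 (95% interval 0.05 to 1.27) did not pass the correction over all genes (adjusted p = 0.15, between 0.0164 and 0.38 over all alternatives). Fkbp10 was 3.23-fold and 3.15-fold higher under 4MU and siLuc-LNP (adjusted p = 0.00407 and 0.00376), and under siHAS2-LNP its log2 fold change was 1.23 (95% interval 0.33 to 2.13, adjusted p = 0.064, between 0.0259 and 0.23 over all alternatives).

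Among the hydroxylases only Plod2 under siLuc-LNP was called higher, and P4ha2 went the other way. Plod2 had 1.03, 0.171 and 0.527 CPM in siLuc-LNP and 3.49, 1.505, 0.900 and 3.33 CPM in CCl4 + siLuc-LNP livers (log2 fold change 2.01 ± 0.56, adjusted p = 0.0100). Replicate 3 of the CCl4 livers overlapped the uninjured range, and the call was lost without siLuc-LNP replicate 2 (1.62, adjusted p = 0.060) or when the other groups were kept out of the fit (2.01, adjusted p = 0.067). P4ha2 had 6.20, 4.18 and 4.41 CPM in 4MU livers and 2.15, 2.69, 3.10 and 3.35 CPM in CCl4 + 4MU livers, so that all 4 injured livers lay below all 3 uninjured ones (log2 fold change -0.80 ± 0.25, adjusted p = 0.0217). With siHAS2-LNP, P4ha2 fell from 4.52, 4.01 and 5.92 CPM to 3.09, 1.90, 3.05 and 2.404 CPM, again without overlap (log2 fold change -0.86 ± 0.25, adjusted p = 0.0253). Under 4MU and siHAS2-LNP, 17.7% and 12.5% of all tested genes lay lower with CCl4 without overlap. The first call was lost without 4MU replicate 1 or CCl4 + 4MU replicate 1, at -0.59 and -0.69, and the second without siHAS2-LNP replicate 1 or 3 or CCl4 + siHAS2-LNP replicate 2 or 4, at -0.90, -0.71, -0.73 and -0.83.

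The remaining hydroxylase values did not pass the test. Under 4MU the log2 fold changes of Plod1, Plod2, Plod3 and P4ha1 were 0.30, 0.39, 0.14 and -0.48, with adjusted p between 0.16 and 0.63. Under siLuc-LNP those of Plod1, Plod3, P4ha1 and P4ha2 were 0.37, 0.25, 0.61 and -0.14, with adjusted p between 0.0786 and 0.72. Under siHAS2-LNP those of Plod1, Plod2, Plod3 and P4ha1 were -0.11, 1.41, -0.16 and -0.60, with adjusted p between 0.11 and 0.73.

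Under siHAS2-LNP the number of genes called with CCl4, 4 in all, fell to 1 without siHAS2-LNP replicate 1, and to 2 without siHAS2-LNP replicate 3 or without CCl4 + siHAS2-LNP replicate 2. Collagen chains were called higher in 10 of 10 under 4MU and under siLuc-LNP, and in 8 of 10 under siHAS2-LNP.

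In the comparison of all 14 CCl4 livers with the 13 others, 6 of the 10 genes were higher and 1 lower, against 24.4% of all genes called higher and 22.1% called lower. Lox ranged from 0.392 to 11.7 CPM (median 2.94) in CCl4 livers and from 0 to 0.513 CPM (median 0.213) in the others, an 18.4-fold difference (adjusted p = 4.27e-08). Loxl1 (lowest 1.68, median 3.53, highest 7.498 CPM, against 0.177, 0.658 and 1.64 CPM) and Loxl2 (4.80, 9.09 and 26.3 CPM, against 0.922, 2.04 and 3.34 CPM) were the members whose 2 sets of livers did not overlap. Of all tested genes, 3.21% lay higher in CCl4 livers without overlap. Serpinh1, Fkbp10 and Plod2 were 2.88-fold, 3.87-fold and 2.73-fold higher (adjusted p = 1.16e-06, 1.15e-06 and 0.000391). P4ha2 was 1.39-fold lower (log2 fold change -0.47 ± 0.15, adjusted p = 0.0125), with a median of 2.88 CPM in CCl4 livers and 4.18 CPM in the others. P4ha1 had an interval of -0.30 to 0.40 around 0.05 (adjusted p = 0.83), and Plod1 and Plod3 had log2 fold changes of 0.17 and 0.15 (adjusted p = 0.13 and 0.12). All 7 calls held when any 1 of the 27 livers was left out.

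Among the 19 other collagen enzymes and helpers tested, 14 were higher and 1 lower in all CCl4 livers. The largest rises were in Loxl4, a further lysyl oxidase (1.78 ± 0.42 on the log2 scale, adjusted p = 0.000855), Creb3l1, a transcription factor of secretory cells (1.53 ± 0.27, adjusted p = 3.64e-05), and Adamts2, which removes the amino-terminal propeptide (1.297 ± 0.18, adjusted p = 7.38e-07). The smallest were in Ppib, a prolyl isomerase of the same compartment as P4ha1 (0.35 ± 0.09, adjusted p = 0.00145), and in Tgm2, a transglutaminase (0.39 ± 0.13, adjusted p = 0.0136). Mia3, which helps load collagen into transport vesicles, fell by 0.29 on the log2 scale (adjusted p = 0.00473). The median log2 fold change was 0.59 for this list and 1.49 for the 10 genes.

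Markers of several cell types moved in the same comparison. Of 9 tested stellate cell and myofibroblast markers, 4 were higher and 2 lower, with Des, an intermediate filament, at 0.63 ± 0.20 (adjusted p = 0.0104) and Lrat, the enzyme of retinoid storage, at -0.01 (adjusted p = 0.97). Of 4 tested smooth muscle and portal fibroblast markers 3 were higher, with Myh11, which is highest in CCl4 + 4MU replicate 4, at 1.60. All 4 mesothelial markers were higher (Msln 1.05, Upk3b 0.99), and so were all 5 cholangiocyte markers, with Krt19, which is highest in the same liver, at 3.00 and Krt7 at 1.52. Of 6 monocyte and macrophage markers 5 were higher, with Ccr2 at 1.02 and Ly6c2 at 0.94, and of 5 Kupffer cell markers 3 were lower, with Clec4f at -1.003 and Vsig4, which did not pass, at -0.41. All 5 proliferation markers were higher, with Mki67 at 3.94 and Top2a at 4.01, and of 6 endothelial markers 2 were higher and 1 lower (Stab2 at -0.56), with Clec4g at 0.22 (adjusted p = 0.43). Summed stellate cell markers were 272 to 474 CPM in the livers without CCl4 and 233 to 475 CPM in the CCl4 livers. Dcn, 1 of these markers, alone held 105.8 to 299.2 CPM, so the sums give little weight to the less abundant ones. The part of these cell types in the results was not tested.

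Relative to collagen mRNA, the median of 9 of the 10 genes was lower in CCl4 livers than in the others. For each liver the CPM of a gene was divided by the summed CPM of Col1a1, Col1a2 and Col3a1, which had a median of 40.05 CPM in control and 678 CPM in CCl4 livers. A gene that rose less than these collagens falls in this ratio. The shares of all genes that fell in it, or that did not overlap between the sets of livers, were not computed. Per 1000 CPM of collagen mRNA, median P4ha1 was 178 in the livers without CCl4 and 21.9 in the CCl4 livers, P4ha2 was 79.6 and 7.51, and Plod1 was 984 and 164. Serpinh1 went from 220.5 to 77.4, Fkbp10 from 15.8 to 8.35, and Plod2 from 12.4 to 4.00. Plod3, at medians of 480.6 and 76.8, P4ha1, P4ha2 and Serpinh1 did not overlap between the 2 sets of livers, and the other 6 genes did. Plod1 overlapped only through CCl4 + 4MU replicate 4, the CCl4 liver with the lowest collagen sum (122.2 CPM). It stood at 534.8 there, at up to 302.3 in the other CCl4 livers, and at 475.3 or more without CCl4. Loxl2 stood at 47.8 and 31.0 and Loxl1 at 13.3 and 10.1. Lox was the exception among the 10 genes, with a median of 3.61 per 1000 in livers without CCl4 and 8.64 in CCl4 livers, although its ranges overlapped (0 to 8.97 and 3.20 to 15.5). The median of Lox was higher with CCl4 than without it in untreated livers (10.07 against 2.33), with siLuc-LNP (10.3 against 3.05) and with siHAS2-LNP (9.66 against 3.61), and lower with 4MU (4.444 against 6.25). The means under 4MU went the other way, at 4.496 with CCl4 and 4.307 without it, and 4MU replicate 1 had 0 Lox counts. These ratios were not tested.

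**Figure D3:**
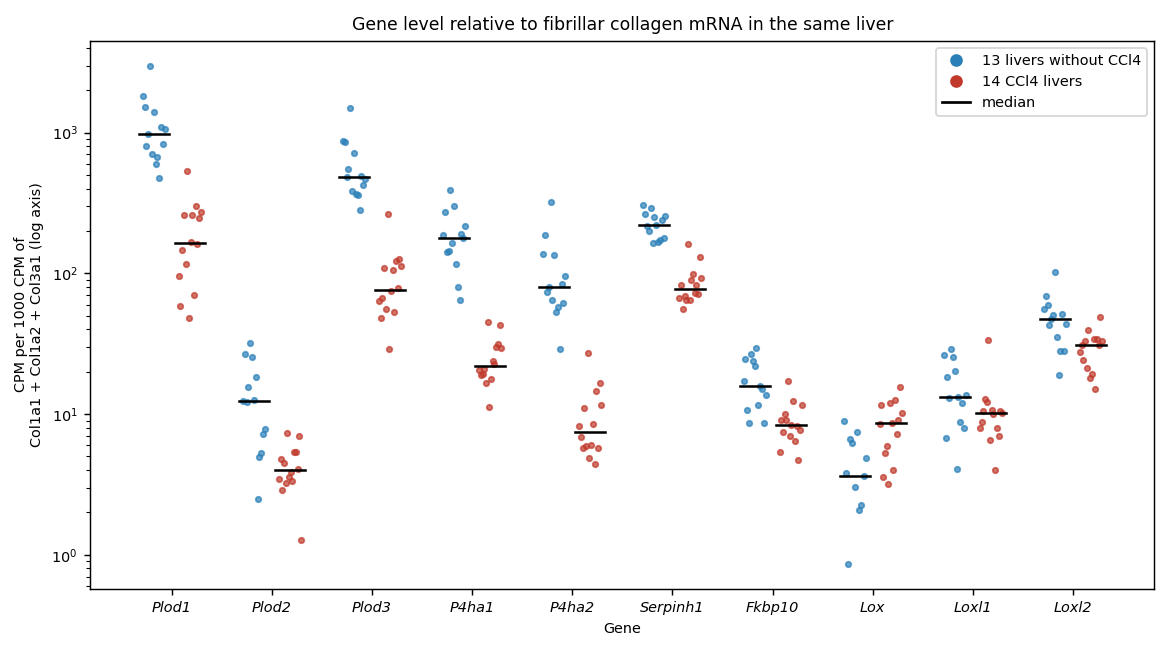
Level of each gene per 1000 CPM of Col1a1, Col1a2 and Col3a1 mRNA in the same liver, on a log axis, for livers without CCl4 (blue) and with CCl4 (red), with medians as black bars. The 2 livers with 0 Lox counts cannot be drawn on this axis but enter the median, and Lox is the gene whose median over all treatments is higher with CCl4 (8.64 against 3.61).

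The next comparisons asked what each treatment did in CCl4 livers. CCl4 + 4MU, CCl4 + siHAS2-LNP and CCl4 + siLuc-LNP were each compared with the same 2 CCl4 livers, so these results share that reference. With 4MU, 5 of the 10 genes were lower than in CCl4, against 10% of all genes called lower, and 0 were higher. With siHAS2-LNP, 6 were lower, against 7.33%, and 0 were higher. P4ha2, Serpinh1 and Loxl2 were called in both comparisons, Lox and P4ha1 with 4MU, and Plod3, Fkbp10 and Loxl1 with siHAS2-LNP. Without CCl4 replicate 2, 0 of the 10 genes were called in either comparison, with a CCl4 group of 1 liver that is assumed to vary like the other groups.

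With 4MU, Lox was 4.62-fold lower than the 4.33 and 9.83 CPM of CCl4 livers, and all 4 CCl4 + 4MU livers, whose values are given above, lay below both (log2 fold change -2.21 ± 0.66, adjusted p = 0.0237). Loxl2 had 8.99, 8.03, 11.1 and 4.80 CPM against 13.9 and 26.3 CPM (-1.29 ± 0.38, adjusted p = 0.0217). Serpinh1 was 2.27-fold lower (adjusted p = 0.0117), with CCl4 + 4MU replicate 3 at 34.1 CPM just above the lower CCl4 liver at 33.9 CPM. P4ha1 had 7.18, 5.14, 8.80 and 5.52 CPM against 10.4 and 16.1 CPM (1.99-fold lower, adjusted p = 0.0138), and P4ha2 was 1.76-fold lower (adjusted p = 0.0413). Neither P4ha1 nor P4ha2 overlapped with CCl4, and 21.5% of all tested genes lay below both CCl4 livers in all 4 CCl4 + 4MU livers. Loxl1 did not pass the test, with 3.92, 3.14, 6.39 and 4.13 CPM against 4.04 and 7.498 CPM (log2 fold change -0.39, 95% interval -1.32 to 0.53). Without CCl4 replicate 2 its log2 fold change was 0.095. Plod1, Plod2, Plod3 and Fkbp10 had log2 fold changes of 0.32, -1.29, -0.37 and -0.79, with adjusted p between 0.0741 and 0.25.

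Several of these calls depended on single livers. Without CCl4 replicate 2 the log2 fold changes of Lox, Loxl2, Serpinh1, P4ha1 and P4ha2 were -1.53, -0.79, -0.60, -0.67 and -0.58, with adjusted p between 0.29 and 0.40. Without CCl4 + 4MU replicate 4, the liver with high Krt19 and Myh11, 3 genes were called, Lox at -1.88 and Loxl2 at -1.10 no longer being among them (adjusted p = 0.0644 and 0.0672). Without CCl4 + 4MU replicate 1 also 3 genes were called, with Lox at -2.15 and P4ha2 at -0.70, and P4ha2 was lost without CCl4 + 4MU replicate 2 as well, at -0.82. Over all alternatives the adjusted p of Lox ran from 1.27e-05 to 0.33, that of Loxl2 from 0.000199 to 0.38 and that of P4ha2 from 0.0242 to 0.39.

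With siHAS2-LNP, Fkbp10 fell most among the called genes, to 1.76, 1.56, 1.41 and 2.404 CPM against 2.73 and 7.69 CPM (3.02-fold lower, adjusted p = 0.013). Loxl1 had 1.68, 2.34, 1.93 and 2.14 CPM, below both CCl4 livers (2.87-fold lower, adjusted p = 0.0275), and Loxl2 had 7.28, 10.4, 8.91 and 6.94 CPM (2.38-fold lower, adjusted p = 0.0307). Serpinh1 was 2.45-fold lower (adjusted p = 0.00884) and P4ha2 1.89-fold lower (adjusted p = 0.0302). Plod3 had 25.9, 26.4, 23.1 and 23.6 CPM, below both CCl4 livers and within the range of control (1.48-fold lower, adjusted p = 0.012). Plod2, at 1.14, 1.37, 1.28 and 0.267 CPM, and Lox lay below both CCl4 livers without passing the test (log2 fold changes -1.43 and -1.57, adjusted p = 0.077 and 0.11). The lowest Plod2 value rests on 2 counts in the least sequenced library. All 4 livers lay below both CCl4 livers in 8 of the 10 genes, and in 18.8% of all tested genes. P4ha1 had a log2 fold change of -0.77 (95% interval -1.33 to -0.21, adjusted p = 0.0568, between 0.0279 and 0.55 over all alternatives) and was called by DESeq2, with the size factors of DESeq2 and without the low-count filter (adjusted p = 0.0386, 0.0494 and 0.0279), and also without CCl4 replicate 1 or CCl4 + siHAS2-LNP replicate 2. Plod1 was at 0.17 (adjusted p = 0.59).

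Without CCl4 replicate 2 these 6 values were between -1.04 and -0.41, with adjusted p from 0.25 to 0.54. Loxl1 was also lost without CCl4 + siHAS2-LNP replicate 1 or 3 (-1.44 and -1.51), Loxl2 without replicate 1, 3 or 4 of that group (-1.19, -1.29 and -1.19), and P4ha2 without replicate 2 or 4 (-0.79 and -0.89).

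Col1a1 was 3.495-fold lower with siHAS2-LNP than in CCl4 (adjusted p = 0.0229) and had a log2 fold change of -1.41 with 4MU (adjusted p = 0.061). Of the 10 collagen chains, 9 were lower with siHAS2-LNP and 1 with 4MU. Of the 19 other collagen enzymes and helpers, 5 and 3 were lower, with Loxl4 at -2.27 under 4MU (adjusted p = 0.0131) and Creb3l1 at -1.505 under siHAS2-LNP (adjusted p = 0.0408). Proliferation markers were lower in 5 of 5 with 4MU and in 3 of 5 with siHAS2-LNP, mesothelial markers in 1 and 3 of 4, and Kupffer cell markers in 0 and 4 of 5. Of 9 stellate cell and myofibroblast markers 0 were lower and 1 higher with 4MU, and 2 were lower with siHAS2-LNP. Their sums were 386 and 390.5 CPM in the CCl4 livers, 288.4 to 363.4 CPM with 4MU and 232.9 to 300.6 CPM with siHAS2-LNP, below both CCl4 livers in each case. Of 6 endothelial markers 0 were lower with 4MU and 2 with siHAS2-LNP, where their sums were 59.6 to 76.2 CPM against 99.8 and 111 CPM in CCl4. With 4MU the hepatocyte markers Alb and Ttr were higher (log2 fold changes 0.82 and 0.96). The part of these cell types in the results was not tested.

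**Figure D4:**
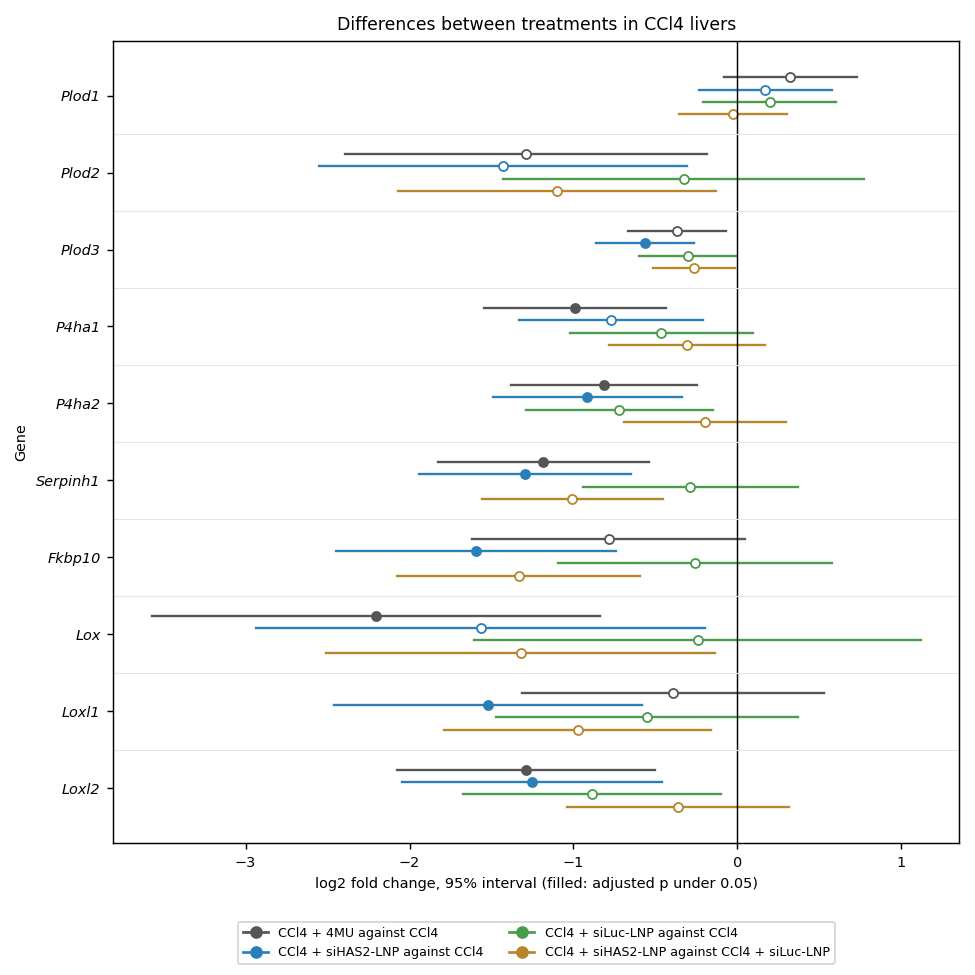
Log2 fold change of each gene between treatment groups of CCl4 livers, as points with 95% intervals, filled where the adjusted p was under 0.05. The filled points belong to the comparisons of CCl4 + 4MU and CCl4 + siHAS2-LNP with CCl4, and those of Lox (-2.21) and Fkbp10 (-1.59) lie farthest from 0 in each.

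The particle control was then compared with both. CCl4 + siLuc-LNP livers were called different from CCl4 in 0 of the 10 genes by edgeR, against 0.248% of all genes called in either direction, with 3 genes at an unadjusted p under 0.05 (14.2% of all genes) and 0 called by DESeq2 or limma-voom. The log2 fold changes ran from -0.89 in Loxl2 to 0.20 in Plod1. Their values were spread widely. Replicates 1 and 4 had 11.7 and 7.73 CPM of Lox and 3.49 and 3.33 CPM of Plod2, and replicates 2 and 3 had 3.36 and 1.08 CPM of Lox and 1.505 and 0.900 CPM of Plod2. P4ha1 split the same way, with 11.0 and 14.1 CPM in replicates 1 and 4 and 6.79 and 6.48 CPM in replicates 2 and 3. Loxl1, at 6.46, 4.13, 2.70 and 2.46 CPM, and Loxl2, at 17.6, 7.37, 9.19 and 9.22 CPM, did not follow that split, replicate 4 being the lowest of its group for Loxl1.

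CCl4 + siHAS2-LNP livers were called different from CCl4 + siLuc-LNP livers in 0 of the 10 genes by edgeR, against 1.09% of all genes in either direction, with 6 genes at an unadjusted p under 0.05 (16.6% of all genes). DESeq2 called 2, Serpinh1 and Fkbp10, and limma-voom called 0. Serpinh1 was at 17.5 to 23.9 CPM in the 4 siHAS2-LNP livers and at 26.9 to 63.7 CPM in the 4 siLuc-LNP livers, without overlap (log2 fold change -1.01 ± 0.27, 95% interval -1.56 to -0.46, adjusted p = 0.061, between 0.000126 and 0.23 over all alternatives). Fkbp10 was at 1.41 to 2.404 CPM against 6.90, 3.24, 3.36 and 3.95 CPM, also without overlap (-1.33 ± 0.36, 95% interval -2.08 to -0.59, adjusted p = 0.064, between 0.00479 and 0.23 over all alternatives). Without CCl4 + siLuc-LNP replicate 3, both were called (-1.21 and -1.47, adjusted p = 0.0342 and 0.0493). Loxl1 and Plod3 did not overlap between the groups either, with adjusted p of 0.21 and 0.28, and 3.52% of all genes lay lower with siHAS2-LNP without overlap. Apart from Serpinh1 and Fkbp10, the log2 fold changes ran from -1.32 in Lox to -0.03 in Plod1. Summed stellate cell markers were also lower without overlap, at 232.9 to 300.6 CPM against 330.1 to 475.3 CPM, with 1 of the 9 markers called lower and 6 at an unadjusted p under 0.05, and their part in these values was not tested.

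4MU and siHAS2-LNP were also compared with each other in CCl4 livers, where 0 of the 10 genes were called by edgeR, DESeq2 or limma-voom, against 1.22% of all genes, and 2 had an unadjusted p under 0.05 (18.6% of all genes). Loxl1 was at 3.14 to 6.39 CPM with 4MU and at 1.68 to 2.34 CPM with siHAS2-LNP, without overlap (log2 fold change 1.13, 95% interval 0.32 to 1.94, adjusted p = 0.13). A share of 6.19% of all tested genes lay higher with 4MU without overlap. Fkbp10 was 0.81 higher on the log2 scale with 4MU (95% interval 0.06 to 1.55, adjusted p = 0.23). For Serpinh1, Loxl2 and P4ha2 the estimates were 0.11, -0.03 and 0.10, with intervals of -0.44 to 0.66, -0.71 to 0.64 and -0.39 to 0.60. P4ha1, called with 4MU and not with siHAS2-LNP against CCl4, was at -0.22 (adjusted p = 0.62), and the other 4 genes ran from -0.64 in Lox to 0.19 in Plod3.

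**Figure D5:**
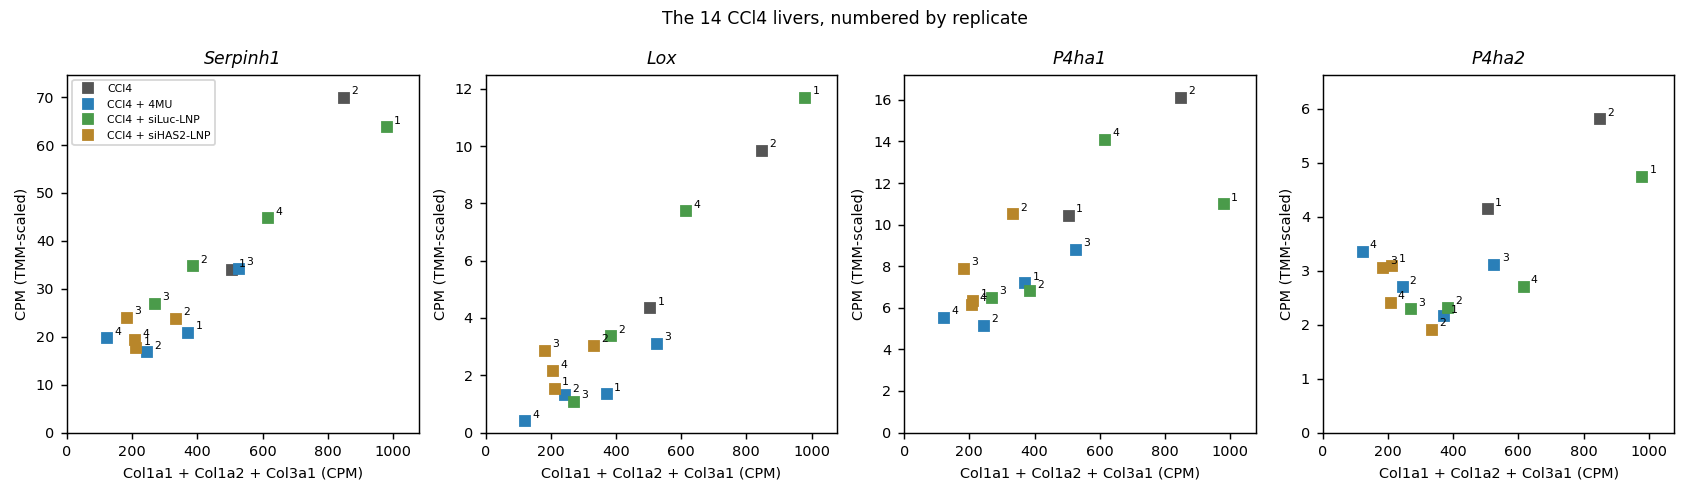
Level of Serpinh1, Lox, P4ha1 and P4ha2 in CPM in each of the 14 CCl4 livers against the summed CPM of Col1a1, Col1a2 and Col3a1 in the same liver, coloured by group and numbered by replicate. CCl4 + siLuc-LNP replicate 1, CCl4 replicate 2 and CCl4 + siLuc-LNP replicate 4 hold the 3 highest collagen sums (981, 849 and 616 CPM) and the 3 highest values of Serpinh1, Lox and P4ha1.

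In uninjured livers 0 of the 10 genes were called by edgeR with 4MU against control (0.00709% of all genes, 0 with an unadjusted p under 0.05 against 6.84% of all genes), with siLuc-LNP against control (0.213%, 1 gene against 6.8%) or with siHAS2-LNP against siLuc-LNP (0.0425%, 2 genes against 8.94%). The log2 fold changes ran from -0.24 in Serpinh1 to 0.88 in Lox in the first comparison, from -0.37 in P4ha2 to 1.32 in Fkbp10 in the second and from -0.91 in Fkbp10 to 0.90 in P4ha1 in the third. DESeq2 called 0 in all 3 comparisons, and limma-voom called 0, 0 and 1, the last being P4ha1. P4ha1 had 10.3, 11.7 and 13.4 CPM with siHAS2-LNP and 6.52, 5.47 and 6.86 CPM with siLuc-LNP, without overlap (log2 fold change 0.90 ± 0.27, 95% interval 0.35 to 1.45, adjusted p = 0.24, between 0.0342 and 0.64 over all alternatives). A share of 8.21% of all tested genes lay higher with siHAS2-LNP without overlap. Fkbp10 had 1.66, 0.797 and 1.67 CPM with siLuc-LNP, above the 4 control livers (log2 fold change 1.32, 95% interval 0.42 to 2.22, adjusted p = 0.41), as did 3.83% of all tested genes.

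The last question was whether a treatment acted differently in injured and uninjured livers. For 4MU, 1 of the 10 genes passed the interaction test in the lower direction, against 2.95% of all genes. P4ha1 was 7.58, 10.5 and 9.82 CPM with 4MU against 6.11 to 7.94 CPM in control, and 5.14 to 8.80 CPM with CCl4 + 4MU against 10.4 and 16.1 CPM in CCl4 (interaction -1.41 ± 0.37 on the log2 scale, adjusted p = 0.0319). The call was lost when any of 7 single livers was left out: control replicate 1, 4MU replicate 2 or 3, CCl4 replicate 2, and CCl4 + 4MU replicate 1, 2 or 4, with values of -1.35, -1.31, -1.37, -1.08, -1.44, -1.33 and -1.33. Lox had the largest estimate, -3.09, with a 95% interval of -5.81 to -0.37 (adjusted p = 0.14), and the other 8 ran from -1.80 in Plod2 to 0.27 in Plod1. For siHAS2-LNP against siLuc-LNP, 0 of the 10 genes passed in edgeR, DESeq2 or limma-voom, against 0.0354% of all genes, and 3 had an unadjusted p under 0.05 (11.4% of all genes). P4ha1 had the smallest adjusted p there, 0.19 (between 0.0209 and 0.42 over all alternatives), at -1.21 ± 0.35, and the other 9 ran from -0.93 in Serpinh1 to -0.41 in Plod3.

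Across the groups, CCl4 livers had the highest mean of 9 of the 10 genes, all but Plod1. CCl4 + siLuc-LNP followed for Plod2, Plod3, Serpinh1, Fkbp10, Lox and Loxl2. These genes were not called against the 2 CCl4 livers, in a test that called 0.248% of all genes, and mean Loxl2 was 10.85 against 20.09 CPM. The top rank of CCl4 leans on replicate 2, the higher of its 2 livers for all 10 genes. CCl4 replicate 1 lay below the mean of another group for Plod2, P4ha1, P4ha2, Serpinh1, Fkbp10, Lox and Loxl1. For Lox it had 4.33 CPM, against a mean of 5.96 CPM in CCl4 + siLuc-LNP. It lay above the means of all other groups for Plod3 and Loxl2. The 4 uninjured groups came last for Plod2, Serpinh1, Fkbp10, Lox, Loxl1 and Loxl2, and no member was called in the 3 tests among these groups. For P4ha2 the 4 uninjured groups (3.35 to 4.93 CPM) lay between CCl4 (4.97 CPM) and the treated CCl4 groups (2.61 to 3.01 CPM).

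Over the 14 CCl4 livers, the genes whose log2 CPM was most like the mean of the 10 scaled members were Nes, an intermediate filament (Pearson r = 0.95), Kirrel1, an adhesion molecule (0.94), Ehd2, a protein of caveolae (0.94), Pea15a (0.93) and Lgi2 (0.92). These livers share treatment groups and the 2 members of the CCl4 group, and the coefficients are a description. Among the 10 genes, Serpinh1 was most like the mean of the other 9 (0.93), and Plod1 was the only one with a negative coefficient (-0.53).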

How the data were processed

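Raw counts per gene from 27 mouse liver libraries (directional poly(A) kit) were used as the authors deposited them. Per the labels and the study's methods, the authors trimmed reads with Trimmomatic 0.39, aligned them with HISAT2 to GRCm39 and counted read pairs with featureCounts in R 3.4.2 against Ensembl release 105, leaving out multi-mapping reads, so near-identical copies lose reads. The HISAT2 version and the strand setting are not given in the sources used here. Library totals were 7044386 to 29425937 counts, and 3 counts correspond to 0.104 to 0.401 CPM. Intervals cover the spread between livers as fitted.

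Symbols and positions came from GENCODE M39 on GRCm39, which matched 54749 of 55414 IDs, and promoters from RefSeq on GRCm38.p6. The 14114 genes that averaged 10 or more counts were tested in 1 edgeR 4.0.16 quasi-likelihood fit over the 8 groups (R 4.3.3, TMM scaling), and all CCl4 livers against all others in a fit with 2 groups. P-values were adjusted by Benjamini-Hochberg over all tested genes, with a threshold of 0.05, and intervals are 95%. The fit was tested on simulated counts for 3 of the 15 comparisons. Mice were separate animals per the study's methods.

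All 10 members were covered in every comparison, by name or within a stated range of log2 fold changes. Beside them stand the 3 largest and the 3 smallest changes among called genes of the list of other collagen enzymes and helpers, 3 collagen chains, the first 2 genes of each marker or target list where tested, and the 5 genes most like the members. Epcam, Car9 and Dcn are named as well, for their level in a single liver or in a sum. The members and lists were chosen with earlier results of these data known. Alternatives were DESeq2 1.42.0, limma 3.58.1 voom with sample quality weights, no low-count filter, edgeR with the size factors of DESeq2, a block for the replicate number, a fit without the groups not compared, the mean of the 8 groups for the pooled contrast, and each liver left out. No count column was left without a sample.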

Additional observations from a re-analysis of the deposited data

Results flagged for a closer look

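In 40 groups of 4 livers, 1 liver was tested for standing apart from the other 3 by Dixon's test, and 3 did; chance gives about 1 in 20. Plod2 in control replicate 1 was at 0.4071 CPM, below the other controls at 0.6833 to 0.736 CPM. Plod3 in CCl4 + siLuc-LNP replicate 4 was at 32.82 CPM, above the others at 28.48 to 28.76 CPM. Loxl2 in control replicate 3 was at 3.331 CPM, above the others at 1.83 to 2.044 CPM. The effect of 4MU on P4ha1 differed between CCl4 and uninjured livers, with an interaction of -1.407 on the log2 scale (edgeR, adjusted p = 0.0319, between 0.00307 and 0.23 over all alternatives).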

How the results depend on the processing

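Of the 43 pairs of gene and comparison past the threshold, 686 values under the alternatives held 628 that kept the call, 58 that lost it and 0 that changed sign. Of the 107 pairs not past it, 39 of 1560 values passed and 55 changed sign. Without the low-count filter, the number of the 10 genes called became 3 for CCl4 + siHAS2-LNP against CCl4 + siLuc-LNP, 1 for CCl4 + 4MU against CCl4 + siHAS2-LNP, 1 for siHAS2-LNP against siLuc-LNP, 3 for the interaction of 4MU and 1 for that of siHAS2-LNP. DESeq2 called 2 in the first of these, and limma-voom 1 for siHAS2-LNP against siLuc-LNP. The cause was not tested.

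Leaving out 1 liver at a time gave 5 to 8 genes for CCl4 against control, 4 to 6 for CCl4 + 4MU against 4MU, 5 to 7 for CCl4 + siLuc-LNP against siLuc-LNP, 1 to 4 for CCl4 + siHAS2-LNP against siHAS2-LNP, 0 to 7 for CCl4 + 4MU against CCl4, 0 to 8 for CCl4 + siHAS2-LNP against CCl4, 0 to 2 for CCl4 + siHAS2-LNP against CCl4 + siLuc-LNP, 0 to 2 for the interaction of 4MU and 7 to 7 for all CCl4 livers. The other 6 comparisons gave 0 to 0. The 0 of CCl4 + 4MU and of CCl4 + siHAS2-LNP against CCl4 came without CCl4 replicate 2, when the remaining liver is assumed to vary like the other groups.

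With the replicate block, CCl4 + 4MU against CCl4 gave 3 genes in place of 5, P4ha2 and Lox being lost (adjusted p = 0.0722 and 0.052), and no other call changed in number by over 1.5 times. Deviations of same-numbered livers had a median correlation of -0.0193 over 83 pairs (-0.347 to 0.361), against -0.0125 over 234 pairs with other numbers (-0.495 to 0.495). These medians cannot decide whether livers of the same number share a source. Depth limits Lox and Plod2 most, with 0 counts of Lox in 2 uninjured livers. DESeq2 size factors moved the median of all genes by at most 0.032.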
